A study of Mus musculus with 16 samples.

Results

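The matrix metalloproteinases (Mmp), the related ADAM and ADAMTS proteases and their 4 tissue inhibitors (Timp) were followed in injured mouse muscle. Members were all probes whose gene symbol in the deposited array table is Mmp, Adamts or Adam followed by a number, with or without the letter a or b, or Timp1 to Timp4. The rule found 66 genes with 96 probes among 18117 genes with 25697 probes, namely 22 Mmp, 14 Adamts, 26 Adam and 4 Timp genes. A pair of probes listed under the name LOC384806, which RefSeq now calls Adam20, fell outside the rule by its listed symbol.

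RNA came from whole hamstring muscle of female mice, and each of 16 samples was hybridised to 1 Illumina BeadChip array. The spinal cord had been injured (SCI) between vertebrae T12 and T13, or the surgery was a sham, and the muscle was injected with saline or with cardiotoxin (CDTX), which comes from cobra venom and kills myofibres. Tissue was collected on day 2 after surgery. With SCI+CDTX, Sham+CDTX, SCI+Saline and Sham+Saline as its groups the design had 4 arrays per group, and per the series' own text only SCI+CDTX muscle later forms neurogenic heterotopic bone. SCI+CDTX replicate 2, left out of the final analysis by the submitters, was left out here too, so that SCI+CDTX had 3 arrays (replicates 1, 3 and 4). The labels give the sex, treatment and time of the mice and no strain, age or genotype. Nothing in them says that replicates came from separate animals, so p-values measure only the spread between these samples, which may be technical.

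Matrix metalloproteinases are zinc-dependent enzymes that are made as inactive precursors and, once activated, cut collagens, laminins, fibronectin and other matrix proteins. ADAM proteases sit in the cell membrane and release the outer parts of cytokines and receptors, while ADAMTS proteases are secreted and cut proteoglycans, procollagens and von Willebrand factor. TIMP proteins bind and block these enzymes. In muscle, matrix is taken apart and rebuilt after fibre injury, and bone formation also needs several of these proteases.

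Several features of the arrays bear on what follows. Both SCI groups lay on slide 1 and both sham groups on slide 2. Slide and surgery therefore cannot be told apart in any comparison of SCI with sham. A slide effect that is the same on all arrays of a slide cancels in the effect of CDTX within a surgery and in the interaction. In the array labels of both slides, CDTX arrays carried the letters A to D and saline arrays E to H. Any effect of that order within a slide cannot be told apart from the injection. An order effect that differs between the slides cannot be told apart from the interaction. The Sham+Saline arrays were dimmer, with a mean raw intensity of 230 to 277 against 320 to 373 on the others. Each array detected 11114 to 13694 probes with a mean of 33.3 to 38.9 beads per probe, and the number of arrays limits the precision. All 12 muscle fibre markers examined passed the detection filter. Their summed intensity was 132000 to 148000 in SCI+CDTX, 138000 to 156000 in SCI+Saline, 137000 to 154000 in Sham+CDTX and 155000 to 164000 in Sham+Saline. Such sums of normalized values do not show that fibre content was equal between groups. Replicate 4 of SCI+Saline and replicate 4 of Sham+Saline stood apart in marrow genes and in the cartilage collagen gene Col2a1, as described with Mmp9 and Mmp13. A further axis came from 2774 other genes with at least 2 probes: the main component of the differences between 2 probes of a gene held 33.7% of their variance, stood at 18.2 to 20.6 on the Sham+CDTX arrays and 14.8 on SCI+CDTX 2, and at -14 to -3.6 on the remaining arrays. This probe difference score therefore moves with Sham+CDTX, and what it stands for was not tested.

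Levels are log2 normalized intensities; they compare arrays for 1 probe and say nothing of 1 gene against another. A gene was called in a comparison at an adjusted p under 0.05 (limma, Benjamini-Hochberg over 14763 probes), and each gene was read at its brightest kept probe. The background correction adds an offset of 16, which shrinks the fold change of a dim probe.

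Of the 66 genes, 37 passed the detection filter (detection p under 0.05 on at least 3 of the 15 arrays), with 47 probes: 14 of 22 Mmp, 9 of 14 Adamts, 10 of 26 Adam and 4 of 4 Timp genes. Detection on all 16 arrays was found for 14 genes: the 4 Timp genes, Mmp1a, Mmp2, Mmp3, Mmp14, Mmp15, Mmp23, Adamts2, Adam9, Adam15 and Adam17. No probe on any of the 16 arrays was detected for 22 genes. These were Mmp1b, Mmp7, Mmp8, Mmp16, Mmp20, Mmp21 and Mmp27, then Adamts3, Adamts12 and Adamts17, then Adam2, Adam3, Adam5, Adam6, Adam7, Adam10, Adam21, Adam25, Adam28, Adam30, Adam32 and Adam39. Among them Mmp8 is the neutrophil collagenase, Mmp20 the tooth enamel protease, and Adam2 and Adam3 are sperm proteins. The other 7 genes that did not pass (Mmp10, Adamts16, Adamts18, Adam1b, Adam11, Adam22 and Adam29) were detected on 1 or 2 arrays. All 29 genes below the filter were not well above background on most arrays, so a change in them was not detectable here. The counts that follow are over the 37 measured genes, not over all members.

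Of the 37 genes, 22 were called in at least 1 of the 5 comparisons or the interaction and 15 in none. In SCI mice, CDTX changed 18 of the 37 genes, 15 higher and 3 lower, against 44.4% of 10952 genes called in all (22.1% higher, 22.3% lower). In sham mice CDTX also changed 18, 12 higher and 6 lower, against 50.7% in all (23.9% higher, 26.9% lower). The members' share called was thus near the background in both, and the median log2 fold change was 0.38 against -0.04 for all genes in SCI mice and 0.03 against -0.05 in sham mice. SCI against sham gave fewer calls: 7 genes among CDTX-injected muscles (5 higher, 2 lower; background 32.4%, with 16.5% higher and 15.8% lower) and 6 among saline-injected ones (2 higher, 4 lower; background 30.6%, with 14.7% higher and 15.9% lower), or 18.9% and 16.2% of the 37, both below the background. Between SCI+CDTX and Sham+Saline, which differ in both factors, 17 genes were called (12 higher, 5 lower; background 48%, with 24% higher and 24% lower). The interaction, which asks whether CDTX acted differently after SCI than after sham surgery, was called for 5 genes (4 more positive, 1 more negative; background 25.7%, with 13.9% and 11.7%). Calls with a log2 fold change of at least 1 in size numbered 11 and 8 for CDTX in SCI and sham mice (background 15.4% and 17.7%), 1 and 3 for SCI in CDTX and saline muscle (9.32% and 7.36%), 12 between SCI+CDTX and Sham+Saline (19.5%) and 2 in the interaction (13.9%). The arrays of the groups compared did not overlap for 21 and 15 of the 37 genes for CDTX in SCI and sham mice (background 47.1% in both), for 12 and 4 for SCI in CDTX and saline muscle (45.2% and 24.5%), and for 13 between SCI+CDTX and Sham+Saline (50.2%).

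Without SCI+Saline 4 and Sham+Saline 4, the arrays that stood apart, 35 members passed the filter and 22 were called for CDTX after SCI (background 48%), 20 after sham surgery (52%), 9 for SCI in CDTX muscle (35.1%), 6 in saline muscle (30.2%), 22 between SCI+CDTX and Sham+Saline (49.8%) and 8 in the interaction (28.1%).

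Directions are relative to the middle of all genes. Median scaling in place of quantile normalization moved the median of all genes from -0.05 to 0.35 for CDTX in sham mice, from -0.02 to 0.18 for SCI in saline muscle, from -0.03 to 0.35 between SCI+CDTX and Sham+Saline and from 0.01 to -0.24 in the interaction. Under it the members' calls split 15 higher and 3 lower for CDTX in sham mice, 4 and 2 for SCI in saline muscle, 4 and 3 for SCI in CDTX muscle, 19 and 2 between SCI+CDTX and Sham+Saline, and 4 and 3 in the interaction. For CDTX in SCI mice the split was 18 and 2. Over all genes, median scaling called 46.5% higher and 8.78% lower for CDTX in sham mice, and 29.5% and 15.4% in SCI mice. The shares were 30.5% and 5.11% for SCI in saline muscle, and 15.3% and 18% in CDTX muscle. They were 44.9% and 9.3% between SCI+CDTX and Sham+Saline, and 6.53% and 27.1% in the interaction.

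**Figure D1:**
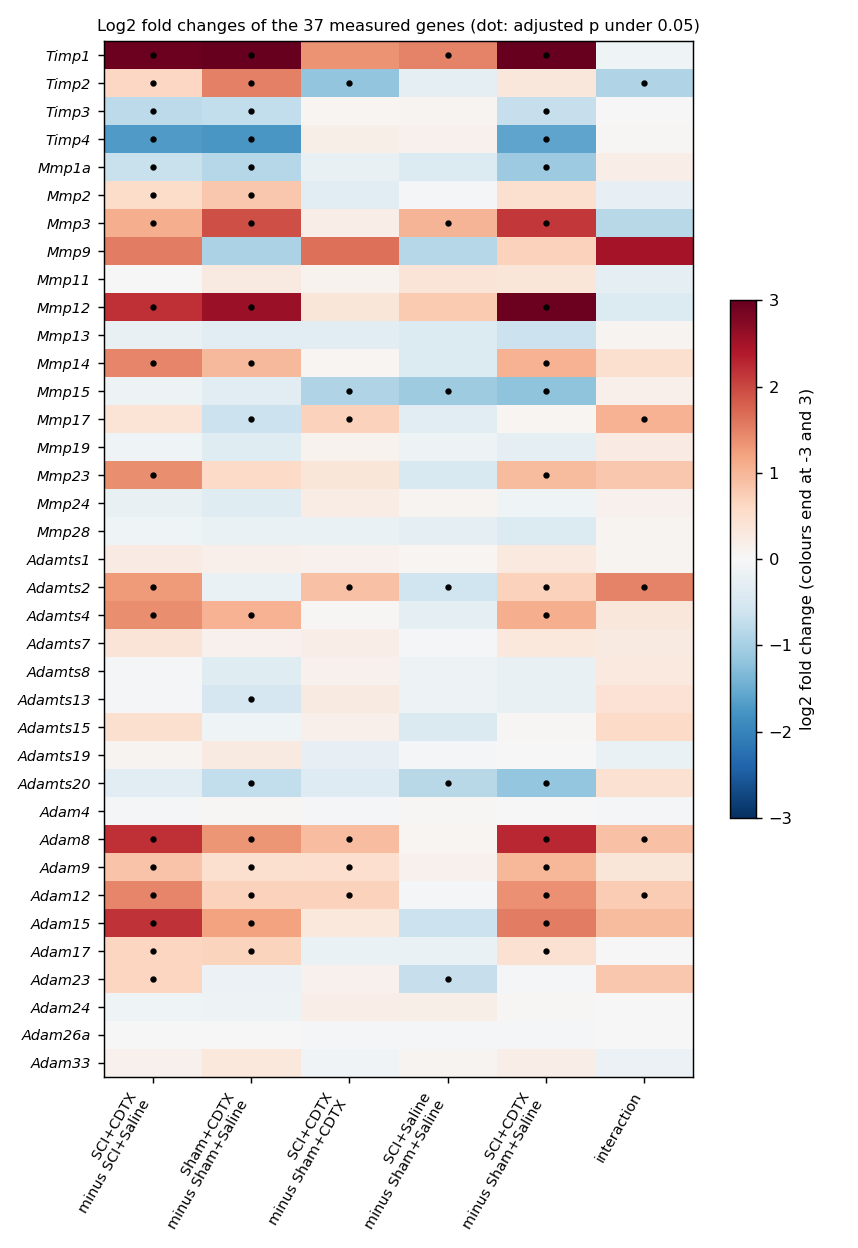
Log2 fold changes of the 37 measured genes (rows) in the 5 comparisons and the interaction (columns), red for higher and blue for lower in the group named at the left of the minus sign, with a black dot at an adjusted p under 0.05. The 2 columns for CDTX against saline hold 18 dots each, while SCI against sham holds 7 with CDTX and 6 with saline.

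The TIMP genes were all called for CDTX in both surgeries, and they moved in opposite directions: Timp1 and Timp2 were higher and Timp3 and Timp4 lower in CDTX-injected muscle. Timp1, a secreted inhibitor of most matrix metalloproteinases that is induced by inflammatory cytokines, stood at 10.56, 11.48 and 11.26 in SCI+CDTX, at 7.8, 8.56, 6.97 and 9.36 in SCI+Saline, at 10.2, 9.39, 9.85 and 9.6 in Sham+CDTX, and at 6.66, 5.54, 6.21 and 8.38 in Sham+Saline. Every CDTX array lay above every saline array of either surgery, and replicate 4 was the highest of both saline groups. CDTX raised Timp1 7.61-fold after SCI (log2 fold change 2.93 ± 0.52 SE, adjusted p 0.000204) and 8.36-fold after sham surgery (3.06 ± 0.49, adjusted p 3.73e-05), and the other Timp1 probe gave 2.93 and 3.33. In bulk muscle, more RNA per cell and more cells of a type that makes it cannot be told apart.

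The 4 groups of Timp1 fell in the order Sham+Saline, SCI+Saline, Sham+CDTX, SCI+CDTX, with means of 6.7 ± 1.21, 8.17 ± 1.02, 9.76 ± 0.35 and 11.1 ± 0.48 (SD; n = 4, 4, 4 and 3). SCI with saline was above sham with saline by 1.48 ± 0.49 (adjusted p 0.0275), with overlapping arrays, and 11 of 26 alternative settings lost that call (adjusted p up to 0.104), among them leaving out SCI+Saline 2 or 4 or Sham+Saline 1, 2 or 3. SCI+CDTX arrays were all above Sham+CDTX arrays, but the difference of 1.34 ± 0.52 did not pass (adjusted p 0.0615). Without the replicate 4 arrays of both saline groups it was 1.33 ± 0.32 (adjusted p 0.00316). SCI+CDTX and Sham+Saline were 21.2-fold apart (log2 4.41 ± 0.52, adjusted p 1.64e-06).

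Timp2, which blocks metalloproteinases and also helps Mmp14 to activate proMmp2 at the cell surface, stood at 10.19, 10.04 and 10 in SCI+CDTX and at 9.5, 9.43, 9.17 and 9.76 in SCI+Saline. In sham mice it stood at 11.15, 11.47, 11.25 and 11.16 with CDTX and at 9.3, 9.75, 9.86 and 10.04 with saline. The Sham+CDTX arrays were the highest of the 15, and CDTX and saline did not overlap within either surgery. CDTX raised Timp2 1.53-fold after SCI (log2 0.61 ± 0.17, adjusted p 0.00805) and 2.86-fold after sham surgery (1.52 ± 0.16, adjusted p 4.42e-07). The difference between these effects was -0.9 ± 0.24 (adjusted p 0.00962), and SCI+CDTX was below Sham+CDTX by 1.18 (log2 fold change -1.18 ± 0.17, adjusted p 5.67e-05). With the probe difference score in a fit of all 16 arrays, the effect in sham mice was 0.48 (adjusted p 0.409), SCI+CDTX against Sham+CDTX stood at -0.37 (adjusted p 0.591) and the interaction at 0, none of them called. With SCI+CDTX 2 added and no score the interaction was -0.75 (adjusted p 0.0727).

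Timp3, which binds to the matrix and also inhibits ADAM and ADAMTS proteases, stood at 9.09, 8.54 and 8.51 in SCI+CDTX, at 9.84, 9.35, 9.57 and 9.19 in SCI+Saline, at 8.79, 8.58, 8.46 and 8.79 in Sham+CDTX, and at 9.43, 9.47, 9.43 and 9.3 in Sham+Saline. All CDTX arrays were below all saline arrays. The fall was 0.78 on the log2 scale after SCI (-0.78 ± 0.17, adjusted p 0.00138) and 0.75 after sham surgery (-0.75 ± 0.16, adjusted p 0.000722). Under median scaling the sham effect was -0.14 and not called (adjusted p 0.521). The other Timp3 probe, a dim one, gave -0.5 after SCI (adjusted p 0.0404) and -0.23 after sham surgery (adjusted p 0.3).

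Timp4, an inhibitor known for its presence in heart and skeletal muscle, stood at 6.14, 5.76 and 5.89 in SCI+CDTX and at 7.08, 7.84, 8.2 and 7.43 in SCI+Saline. In sham mice it stood at 5.44, 5.56, 6 and 6.06 with CDTX and at 7.42, 7.23, 7.74 and 7.66 with saline. The 7 CDTX arrays all lay below the 8 saline arrays, with no overlap. CDTX lowered Timp4 3.25-fold after SCI (log2 -1.7 ± 0.23, adjusted p 1.28e-05) and 3.35-fold after sham surgery (-1.74 ± 0.21, adjusted p 1.86e-06), and the difference between these effects was 0.04 ± 0.31 (adjusted p 0.942). SCI against sham was 0.17 ± 0.23 with CDTX and 0.12 ± 0.21 with saline, neither called.

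**Figure D2:**
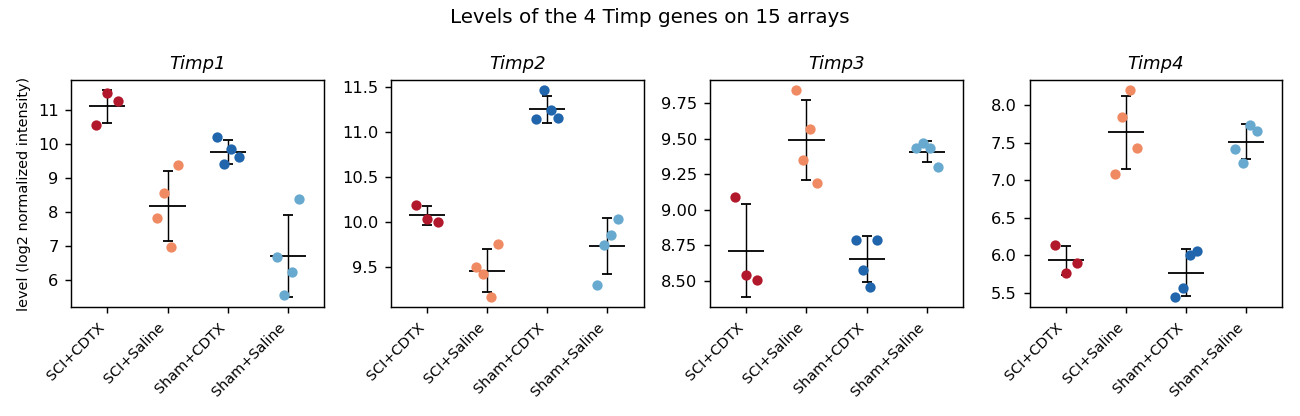
Level of each Timp gene (vertical axis, log2 normalized intensity at the brightest probe) in the 4 groups, with 1 point per array, the group mean as a bar and the SD as whiskers (n = 3 for SCI+CDTX, otherwise 4). Timp1 means run from 6.7 in Sham+Saline to 11.1 in SCI+CDTX, Timp2 peaks at 11.26 in Sham+CDTX, and Timp4 is at 5.93 and 5.77 with CDTX against 7.64 and 7.51 with saline.

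Of the 14 measured Mmp genes, CDTX raised Mmp2, Mmp3, Mmp12 and Mmp14 in both surgeries and Mmp23 in SCI mice, and lowered Mmp1a in both. Mmp1a, Mmp3, Mmp12 and Mmp13 belong to the Mmp gene cluster on mouse chromosome 9 (band 9qA1 in the array's annotation). Sequences upstream of the start sites of 39 members were available from RefSeq (build GRCm38.p6), 10 of them in this cluster. The letters TGAGTCA, the consensus site of AP-1 factors, occurred on either strand between 250 bases before and 50 after the start in 7 of the 10 cluster genes, in 2 of the other 29 members and in 5.95% of 27025 genes in the table. Neighbouring genes of the cluster are related copies, so these are not independent matches. By detection, 4 of 22 measured members with a sequence and 5 of 17 below the filter held the letters. The 250 bases before the start are shown for the 4 measured cluster genes because these lie close together in the genome and differed in their response to CDTX; the match is in capitals (in Mmp13 it lies on the minus strand and reads TGACTCA), all 4 genes are on the plus strand, and for Mmp12 the start site with the match is shown. A match is a description of these letters only.
Mmp3, chr9:7445572-7445821: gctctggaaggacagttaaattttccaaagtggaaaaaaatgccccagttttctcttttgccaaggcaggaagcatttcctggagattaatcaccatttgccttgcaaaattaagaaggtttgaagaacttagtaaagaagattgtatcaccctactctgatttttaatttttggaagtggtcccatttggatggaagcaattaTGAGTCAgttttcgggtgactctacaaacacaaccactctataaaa
Mmp12, chr9:7347124-7347373: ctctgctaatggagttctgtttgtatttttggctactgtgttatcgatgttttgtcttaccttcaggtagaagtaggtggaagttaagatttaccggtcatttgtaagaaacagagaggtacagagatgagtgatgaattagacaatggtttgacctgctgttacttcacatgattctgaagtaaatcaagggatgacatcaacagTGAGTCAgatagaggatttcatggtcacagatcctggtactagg
Mmp1a, chr9:7463891-7464140: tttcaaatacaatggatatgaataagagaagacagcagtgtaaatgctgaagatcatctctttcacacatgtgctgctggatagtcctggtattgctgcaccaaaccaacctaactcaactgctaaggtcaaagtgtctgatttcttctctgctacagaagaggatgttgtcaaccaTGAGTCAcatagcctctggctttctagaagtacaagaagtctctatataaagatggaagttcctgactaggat
Mmp13, chr9:7272264-7272513: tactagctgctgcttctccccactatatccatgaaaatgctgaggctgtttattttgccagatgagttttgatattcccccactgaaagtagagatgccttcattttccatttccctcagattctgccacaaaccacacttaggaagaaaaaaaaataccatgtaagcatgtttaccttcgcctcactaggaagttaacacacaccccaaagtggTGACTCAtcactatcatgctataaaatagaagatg
The match began 46 bases before the start in Mmp3, 44 in Mmp12, 73 in Mmp1a and 35 in Mmp13. All 4 genes hold the letters close to the start, while the arrays gave rises for Mmp3 and Mmp12, falls for Mmp1a and no call for Mmp13.

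Mmp3, stromelysin 1, which cuts many matrix proteins and activates other proMMPs, stood at 8.58, 8.93 and 9.06 in SCI+CDTX, at 7.99, 7.78, 7.56 and 7.69 in SCI+Saline, at 8.95, 8.57, 8.46 and 8.69 in Sham+CDTX, and at 6.17, 6.45, 6.86 and 7.49 in Sham+Saline. The CDTX arrays of both surgeries formed the top 7, and the SCI+Saline arrays all lay between them and Sham+Saline. CDTX raised Mmp3 2.14-fold after SCI (log2 1.1 ± 0.23, adjusted p 0.000962) and 3.8-fold after sham surgery (1.93 ± 0.22, adjusted p 8.16e-07). SCI with saline was 2.02-fold above sham with saline (1.02 ± 0.22, adjusted p 0.00156), while with CDTX the surgeries were 0.19 ± 0.23 apart (adjusted p 0.626). The interaction of -0.83 ± 0.32 did not pass (adjusted p 0.0668); without the 2 replicate 4 arrays it was -1.1 (adjusted p 0.00571). Of the other 2 Mmp3 probes, both gave the same calls for CDTX (0.87 and 1.1 after SCI, 0.61 and 1.53 after sham surgery) and for SCI with saline (0.62 and 0.47), but the dimmest also put SCI+CDTX above Sham+CDTX by 0.88 (adjusted p 0.00334) where the others gave 0.04 and 0.19. The sham effect of the brightest probe was 1.34 with the probe difference score (adjusted p 0.0773).

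Mmp12, the macrophage elastase, stood at 7.65, 7.08 and 6.95 in SCI+CDTX and at 7.53, 6.91, 6.17 and 6.81 in Sham+CDTX. With saline it stood at 4.51, 6, 4.46 and 5.23 after SCI and at 4.43, 4.27, 4.21 and 4.19 after sham surgery. It was detected on all CDTX arrays, on 2 of 4 SCI+Saline arrays (replicates 2 and 4 were the high ones) and on 0 of 4 Sham+Saline arrays. CDTX raised it 4.53-fold after SCI (log2 2.18 ± 0.32, adjusted p 3.05e-05) and at least 4.24-fold after sham surgery (2.58 ± 0.29, adjusted p 9.58e-07), where "at least" sets the undetected group at the lowest detected signal of each array or the probe's own value, whichever is higher. SCI with saline against sham with saline was 0.78 ± 0.29 (adjusted p 0.0547), just short of a call. Of 12 measured monocyte and macrophage markers, CDTX raised 11 after SCI and 12 after sham surgery, with a summed intensity of 14800 to 22000 in SCI+CDTX and 20300 to 23700 in Sham+CDTX against 1060 to 4910 and 1340 to 2440 with saline; Ccr2 was detected on no array. The part of such cells in the rise of Mmp12 or of any other member was not tested.

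Mmp14, the membrane-anchored collagenase MT1-MMP and the activator of proMmp2, stood at 9.61, 9.73 and 9.77 in SCI+CDTX, at 8.61, 7.57, 8.38 and 8.38 in SCI+Saline, at 9.85, 9.08, 10.05 and 9.59 in Sham+CDTX, and at 8.18, 8.31, 8.41 and 9.74 in Sham+Saline. Only replicate 4 of Sham+Saline reached the CDTX arrays. CDTX raised Mmp14 2.77-fold after SCI (1.47 ± 0.31, adjusted p 0.000969) and 1.97-fold after sham surgery (0.98 ± 0.29, adjusted p 0.00916); with the probe difference score the latter was 1.67 (adjusted p 0.111). Mmp2, gelatinase A, rose by 0.55 ± 0.21 (adjusted p 0.0435) and 0.81 ± 0.2 (adjusted p 0.00229), from 9.5 to 10.32 over the 8 saline arrays to 10.29 to 11.25 over the 7 CDTX arrays.

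Mmp23, a membrane-bound member that lacks the usual hemopexin domain, stood at 6.65, 7.4 and 6.83 in SCI+CDTX and at 5.48, 5.56, 4.91 and 6.28 in SCI+Saline. In sham mice it stood at 6.93, 6.5, 6.4 and 6.54 with CDTX and at 5.77, 6.02, 5.47 and 6.81 with saline. The SCI groups did not overlap, while replicate 4 of Sham+Saline lay among the Sham+CDTX arrays. CDTX raised Mmp23 2.64-fold after SCI (1.4 ± 0.3, adjusted p 0.000929); after sham surgery the value was 0.58 ± 0.28 (adjusted p 0.0924), and the difference between the effects, 0.82 ± 0.41, did not pass (adjusted p 0.157). Without the 2 replicate 4 arrays Mmp23 rose after sham surgery too, by 0.84 ± 0.21 (adjusted p 0.00237), with a difference between the effects of 0.8 (adjusted p 0.0598).

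Mmp1a, a mouse counterpart of the interstitial collagenase, stood at 5.31, 4.75 and 5.35 in SCI+CDTX, at 6.05, 5.83, 5.84 and 5.51 in SCI+Saline, at 5.07, 5.26, 5.49 and 5.64 in Sham+CDTX, and at 6.56, 6.48, 5.99 and 5.89 in Sham+Saline. CDTX and saline did not overlap in either surgery. The fall was 0.67 after SCI (log2 -0.67 ± 0.2, adjusted p 0.012) and 0.86 after sham surgery (-0.86 ± 0.19, adjusted p 0.000898). Neither call held under median scaling, which gave -0.4 (adjusted p 0.114) and -0.14 (adjusted p 0.55), and the call after SCI was also lost without SCI+CDTX 3 (-0.48, adjusted p 0.103).

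Mmp15, the membrane-type enzyme MT2-MMP, followed the surgery and slide and not the injection. It stood at 5.67, 5.89 and 5.34 in SCI+CDTX, at 5.95, 5.1, 6.12 and 5.99 in SCI+Saline, at 6.8, 6.51, 6.38 and 6.47 in Sham+CDTX, and at 7, 7.14, 6.61 and 6.63 in Sham+Saline. Every SCI array was below every sham array. Mmp15 was 1.87-fold lower after SCI with CDTX (log2 -0.9 ± 0.22, adjusted p 0.00402) and 2.08-fold lower with saline (-1.06 ± 0.2, adjusted p 0.000607), and CDTX gave -0.15 and -0.31, neither called. SCI+CDTX 2, the array left out, stood at 6.54, and with it the first of these was -0.69 (adjusted p 0.0532).

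Mmp17, the membrane-type enzyme MT4-MMP, was detected on 0 of 4 Sham+CDTX arrays, where it stood at 4.48, 4.41, 4.41 and 4.4. It stood at 5.06, 5.24 and 5.08 in SCI+CDTX, at 4.97, 4.38, 4.57 and 4.98 in SCI+Saline, and at 5.14, 4.45, 5.33 and 5.39 in Sham+Saline. Sham+CDTX was thus the lowest group and SCI+CDTX lay above it with no overlap. CDTX lowered Mmp17 at least 1.48-fold after sham surgery (log2 -0.65 ± 0.19, adjusted p 0.00683) and gave 0.4 ± 0.2 after SCI (adjusted p 0.116), and the difference between these effects was 1.05 ± 0.27 (adjusted p 0.00865). SCI+CDTX was at least 1.53-fold above Sham+CDTX (0.7 ± 0.2, adjusted p 0.0122). With the probe difference score these 3 values were -0.14, 0.55 and 0.24, none of them called, and without SCI+CDTX 3 the last was 0.63 (adjusted p 0.0564).

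Mmp11, Mmp19, Mmp24 and Mmp28 were measured and called nowhere, with levels between 4.25 and 5.66 on every array.

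**Figure D3:**
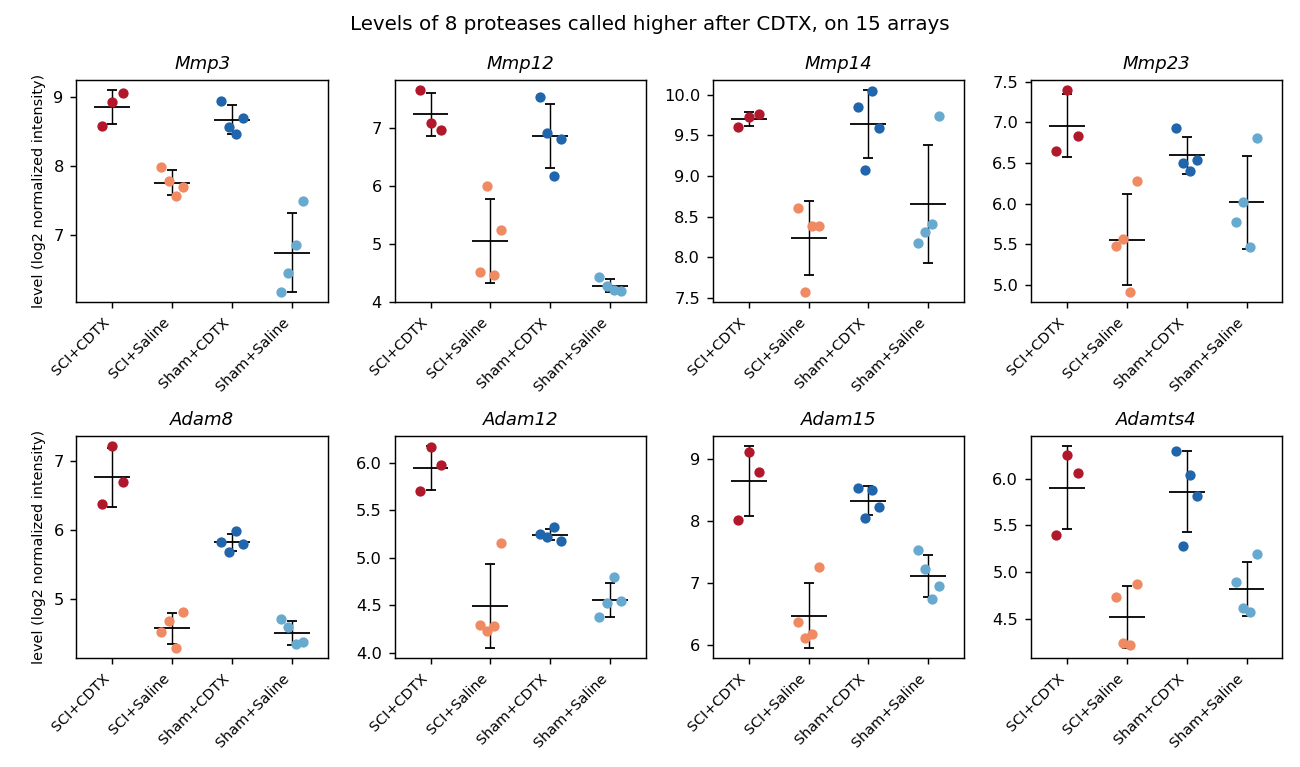
Level (vertical axis, log2 normalized intensity at the brightest probe) of 8 proteases called higher after CDTX in at least 1 surgery, with 1 point per array, the group mean as a bar and the SD as whiskers. In SCI mice the CDTX and saline arrays do not overlap for any of the 8; Mmp12 and Adam8 are at 4.19 to 4.43 and 4.34 to 4.71 in Sham+Saline, where neither was detected.

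Mmp9, gelatinase B, which neutrophils store and osteoclasts secrete, and Mmp13, the collagenase of cartilage and bone, were singled out after their values were seen, since neither was called in any comparison of the 15 arrays. Mmp9 stood at 7.16, 7.58 and 7.9 in SCI+CDTX and at 6.09, 5.91, 5.68 and 5.92 in Sham+CDTX. With saline it stood at 5.72, 5.5, 4.67 and 8.17 after SCI and at 5.94, 6, 5.74 and 9.76 after sham surgery. Replicate 4 of each saline group was above every other array, and the remaining saline arrays lay between 4.67 and 6.

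Mmp13 stood at 5.43, 5.59 and 5.59 in SCI+CDTX, at 4.54, 4.85, 4.7 and 8.99 in SCI+Saline, at 6.19, 6.18, 5.63 and 5.49 in Sham+CDTX, and at 4.59, 4.32, 4.94 and 10.91 in Sham+Saline. Here too replicate 4 of each saline group was far above the rest, and the other 6 saline arrays were all below the 7 CDTX arrays. The other Mmp13 probe stayed between 4.27 and 4.96 on all 15 arrays and was called nowhere. Mmp9 and Mmp13 were the only members for which both replicate 4 arrays exceeded the 13 others, a pattern of 70 genes (0.639%) in all. On the same arrays, all 7 measured markers of marrow granulocyte precursors (such as Camp, at 9.48 and 9.84, and Elane, at 7.67 and 7.38) were above the other 13, with a summed intensity of 1920 and 2300 against 140 to 197. Of 5 erythroid precursor genes 3 were above the other arrays, such as Slc4a1 at 8.78 and 9.57, and the list summed to 626 and 1100 against 121 to 167. Of 3 osteoclast genes 2 were (sums of 792 and 1750 against 280 to 753), and of 6 genes of bone-forming cells 1 was (942 and 4290 against 311 to 4120). On SCI+Saline 4 these were barely above the highest of the other 13 arrays. There Acp5 stood at 5.36 (next 5.34), Ctsk at 9.49 (next 9.46) and Omd at 5.21 (next 5.11). On Sham+Saline 4 they stood at 5.63, 10.68 and 6.28. Of 5 cartilage genes only Col2a1 was above the other 13, at 7.53 and 9.42. Col11a1, Col11a2, Col9a1 and Sox9 lay within the range of the others. These lists were chosen after the arrays had been seen, and their part in the Mmp9 and Mmp13 values was not tested.

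With all 15 arrays, SCI+CDTX exceeded Sham+CDTX in Mmp9 by 1.65 ± 0.77 with no overlap (adjusted p 0.121), CDTX gave 1.53 ± 0.77 in SCI mice (adjusted p 0.118) and -0.96 ± 0.71 in sham mice (adjusted p 0.282), and the interaction was 2.49 ± 1.05 (adjusted p 0.0932). Without the 2 replicate 4 arrays, an alternative chosen after seeing the data, Mmp9 was higher in SCI+CDTX than in SCI+Saline by 2.26 ± 0.23 (adjusted p 4.33e-07). It exceeded Sham+CDTX by 1.64 ± 0.22 (adjusted p 1.86e-05), CDTX in sham mice gave 0.01 ± 0.22 (adjusted p 0.977), and the interaction was 2.25 ± 0.32 (adjusted p 7.81e-05). Over the 13 arrays Mmp9 thus stood at 7.16 to 7.9 in SCI+CDTX and at or below 6.09 elsewhere. The excluded array SCI+CDTX 2 stood at 6.1, near Sham+CDTX, and with the probe difference score over all 16 arrays SCI+CDTX against Sham+CDTX was 0.54 (adjusted p 0.916). The summed intensity of 10 measured neutrophil markers was 4190 to 6440 in SCI+CDTX and 1120 to 1320 in Sham+CDTX, and spanned 2110 to 13800 and 226 to 11800 in the saline groups, with S100a8 at 47.6% of the SCI+CDTX sum. By limma 0 of the 10 were called between SCI+CDTX and Sham+CDTX (3 higher at an unadjusted p under 0.05; median 0.44), and 5 of 9 were higher without the 2 replicate 4 arrays. The part of neutrophils in the Mmp9 values was not tested. In the authors' deposited table, whose values are group means, Mmp9 stood at 213 in SCI+CDTX, 57.3 in Sham+CDTX (listed p against SCI+CDTX 1e-05), 84.5 in SCI+Saline (0.28289) and 231.1 in Sham+Saline (0.99193). For Mmp13 the 13 arrays gave a rise with CDTX of 0.85 ± 0.21 after SCI (adjusted p 0.00221) and of 1.27 ± 0.19 after sham surgery (adjusted p 2.29e-05), where all 15 gave -0.23 and -0.32. A limma fit of SCI+CDTX and Sham+CDTX alone gave 1.65 for Mmp9 (adjusted p 1.47e-05). The 2 replicate 4 arrays were not in that fit, but its values were normalized and its probes filtered over all 15 arrays. It is therefore not independent of them.

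**Figure D4:**
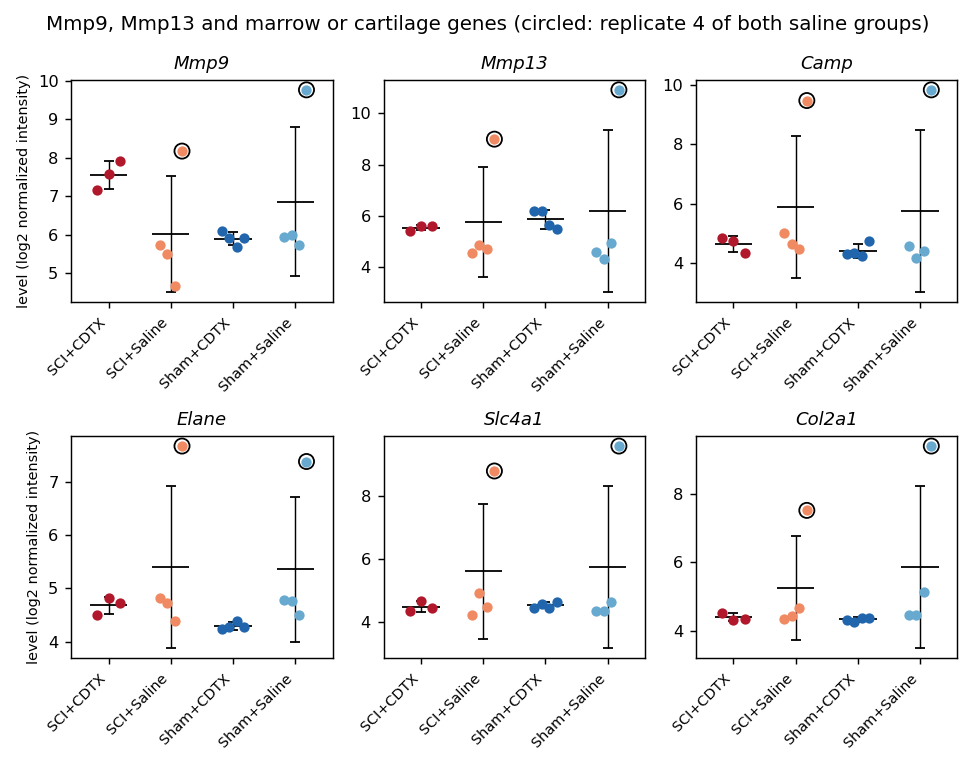
Level (vertical axis, log2 normalized intensity) of Mmp9, Mmp13 and 4 genes of marrow granulocyte precursors (Camp, Elane), red cell precursors (Slc4a1) and cartilage (Col2a1), with 1 point per array, the group mean as a bar and the SD as whiskers; circles mark replicate 4 of SCI+Saline and of Sham+Saline. The circled arrays are the top 2 in all 6 panels, at 8.17 and 9.76 for Mmp9 and at 8.99 and 10.91 for Mmp13.

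Of the 10 measured Adam genes, CDTX raised Adam8, Adam9, Adam12, Adam15 and Adam17 in both surgeries and Adam23 in SCI mice, and lowered none. Adam8, a leukocyte surface protease, stood at 6.37, 7.21 and 6.69 in SCI+CDTX, at 4.52, 4.68, 4.28 and 4.8 in SCI+Saline, at 5.82, 5.68, 5.98 and 5.79 in Sham+CDTX, and at 4.71, 4.59, 4.34 and 4.37 in Sham+Saline. The groups fell in 3 layers, SCI+CDTX above Sham+CDTX above both saline groups, which overlapped. CDTX raised Adam8 4.55-fold after SCI (log2 2.19 ± 0.18, adjusted p 3.86e-07) and at least 2.07-fold after sham surgery (1.32 ± 0.17, adjusted p 3.51e-06; detected on 0 of 4 Sham+Saline arrays). SCI+CDTX exceeded Sham+CDTX 1.91-fold (0.93 ± 0.18, adjusted p 0.000716), and the interaction was 0.87 ± 0.25 (adjusted p 0.0157). The other Adam8 probe gave 1.81, 1.26 and 0.77, all called, and an interaction of 0.54 that was not (adjusted p 0.116). SCI+CDTX 2 stood at 5.42, and adding it gave 0.59 against Sham+CDTX (adjusted p 0.127) and an interaction of 0.52 (adjusted p 0.39). With the probe difference score over all 16 arrays SCI+CDTX against Sham+CDTX turned to -0.39 (adjusted p 0.698) and the interaction to -0.61 (adjusted p 0.629); without SCI+CDTX 3 the interaction was 0.64 (adjusted p 0.0586).

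Adam12, meltrin alpha, which is induced in regenerating muscle and in mesenchymal progenitors, stood at 5.7, 6.16 and 5.97 in SCI+CDTX and at 4.29, 4.23, 4.28 and 5.15 in SCI+Saline. In sham mice it stood at 5.25, 5.22, 5.32 and 5.18 with CDTX and at 4.37, 4.52, 4.8 and 4.54 with saline. CDTX and saline did not overlap in either surgery, and SCI+CDTX was the highest group. CDTX raised it 2.75-fold after SCI (1.46 ± 0.19, adjusted p 1.27e-05) and 1.61-fold after sham surgery (0.68 ± 0.18, adjusted p 0.00397), and SCI+CDTX exceeded Sham+CDTX 1.63-fold (0.7 ± 0.19, adjusted p 0.0102). The interaction of 0.77 ± 0.27 was near the threshold (adjusted p 0.0409) and was lost in 16 of 26 alternatives. SCI+CDTX against Sham+CDTX was 0.06 with the probe difference score (adjusted p 0.969), and without SCI+CDTX 3 it was 0.59 (adjusted p 0.06).

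Adam15, metargidin, a protease that binds integrins, stood at 8.02, 9.11 and 8.79 in SCI+CDTX, at 6.37, 6.11, 6.18 and 7.25 in SCI+Saline, at 8.52, 8.04, 8.5 and 8.22 in Sham+CDTX, and at 7.53, 7.22, 6.74 and 6.96 in Sham+Saline. All CDTX arrays were above all saline arrays at this probe. CDTX raised it 4.48-fold after SCI (2.16 ± 0.27, adjusted p 7.52e-06) and 2.31-fold after sham surgery (1.21 ± 0.25, adjusted p 0.000594). The other Adam15 probe stood at 4.29 to 5.11 on all arrays and gave 0.13 and 0.04, not called, so the probes of this gene disagree. The interaction at the brighter probe was 0.96 ± 0.37 (adjusted p 0.0699) and, without the 2 replicate 4 arrays, 1.26 (adjusted p 0.00852).

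Adam9, a widely made membrane protease, rose with CDTX by 0.85 ± 0.19 after SCI (adjusted p 0.00142) and by 0.48 ± 0.18 after sham surgery (adjusted p 0.0315), and SCI+CDTX exceeded Sham+CDTX by 0.51 ± 0.19 (adjusted p 0.0488). This last call was near the threshold and was lost with the probe difference score. The authors' deposited values list a p of 0.05356 for Sham+CDTX against SCI+CDTX in Adam9. Adam17, the enzyme that releases tumour necrosis factor from cells, rose by 0.64 ± 0.17 (adjusted p 0.00539) and 0.66 ± 0.16 (adjusted p 0.00196), with a difference between the effects of -0.02 ± 0.23. Adam23, a member without protease activity, rose with CDTX in SCI mice by 0.64 ± 0.22 (adjusted p 0.0252) and was lower in SCI+Saline than in Sham+Saline by 0.68 (log2 -0.68 ± 0.2, adjusted p 0.0169), a call lost without the 2 replicate 4 arrays (-0.53, adjusted p 0.085). Adam4, Adam24, Adam26a and Adam33 were detected on 3 or 4 of 16 arrays each and called nowhere.

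Among the 9 measured Adamts genes the calls were few and differed in kind. Adamts2, which removes the amino-terminal propeptide of fibrillar procollagens, stood at 9.61, 10.05 and 9.86 in SCI+CDTX, at 8.61, 8.14, 8.59 and 8.88 in SCI+Saline, at 9.02, 8.95, 9.01 and 8.86 in Sham+CDTX, and at 9.05, 9.16, 8.8 and 9.62 in Sham+Saline. SCI+CDTX arrays were above those of SCI+Saline and Sham+CDTX, and only replicate 4 of Sham+Saline reached them. CDTX raised Adamts2 2.43-fold after SCI (1.28 ± 0.19, adjusted p 3.59e-05) and gave -0.2 ± 0.18 after sham surgery (adjusted p 0.372), and the difference between these effects was 1.48 ± 0.26 (adjusted p 0.000452). SCI+CDTX exceeded Sham+CDTX 1.84-fold (0.88 ± 0.19, adjusted p 0.00176), while SCI with saline was below sham with saline by 0.6 (-0.6 ± 0.18, adjusted p 0.0145), a call lost without SCI+Saline 2 (-0.46), without Sham+Saline 4 (-0.45) and under median scaling (-0.14). Of the other 2 probes, the dimmest gave 1.32, -0.08, an interaction of 1.4 (adjusted p 0.00106) and 1.5 against Sham+CDTX, while the middle one gave 0.85, 0.21, 0.39 against Sham+CDTX (adjusted p 0.174) and an interaction of 0.64 (adjusted p 0.11), neither of these last 2 called. For SCI with saline these probes gave 0.1 and -0.25 (adjusted p 0.743 and 0.369), so that fall was called at the brightest probe alone. SCI+CDTX 2, the array left out, stood at 8.02, below all 15 others. With it, the rise after SCI was 0.82 (adjusted p 0.0543), the difference from Sham+CDTX 0.42 (adjusted p 0.422) and the interaction 1.02 (adjusted p 0.155). With the probe difference score SCI+CDTX against Sham+CDTX turned to -1.12 (adjusted p 0.107) and the interaction to -0.74 (adjusted p 0.511).

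Adamts4, aggrecanase 1, which cuts aggrecan and versican, stood at 5.4, 6.25 and 6.06 in SCI+CDTX and at 4.73, 4.24, 4.22 and 4.87 in SCI+Saline. In sham mice it stood at 6.3, 5.28, 6.04 and 5.81 with CDTX and at 4.89, 4.61, 4.57 and 5.19 with saline. The CDTX arrays were all above the saline arrays, with replicate 4 the highest of both saline groups. CDTX raised it 2.61-fold after SCI (1.39 ± 0.25, adjusted p 0.000201) and 2.06-fold after sham surgery (1.04 ± 0.23, adjusted p 0.000924).

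Adamts20, a versican-cutting protease, was highest in Sham+Saline at 5.91, 5.52, 5.73 and 5.17, and stood at 4.87, 4.92, 4.56 and 4.97 in Sham+CDTX, at 4.51, 5, 4.71 and 4.74 in SCI+Saline and at 4.43, 4.45 and 4.43 in SCI+CDTX, where no array detected it. Sham+Saline overlapped with none of the other groups. It was 1.69-fold lower with CDTX in sham mice (-0.75 ± 0.16, adjusted p 0.000623), 1.79-fold lower after SCI with saline (-0.84 ± 0.16, adjusted p 0.000554) and at least 2.09-fold lower in SCI+CDTX than in Sham+Saline (-1.15 ± 0.17, adjusted p 2.08e-05). The other Adamts20 probe gave -0.62, -0.57 and -0.77, all called. Under median scaling the CDTX effect in sham mice was -0.29 (adjusted p 0.112). Adamts13, which cuts von Willebrand factor, fell by 0.5 with CDTX in sham mice (log2 -0.5 ± 0.19, adjusted p 0.0372). Adamts1, Adamts7, Adamts8, Adamts15 and Adamts19 were not called in any comparison of the 15 arrays; without the 2 replicate 4 arrays Adamts7 (0.42, adjusted p 0.0369) and Adamts15 (0.57, adjusted p 0.0385) were called higher with CDTX after SCI, and Adamts7 also between SCI+CDTX and Sham+Saline (0.46, adjusted p 0.024).

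The effects of CDTX in SCI and in sham mice come from separate arrays. Of the 37 genes, 12 were higher in both, 3 lower in both (Timp3, Timp4 and Mmp1a), 3 higher in SCI mice alone by the call (Adam23, Adamts2 and Mmp23, the last called in both without the 2 replicate 4 arrays), 3 lower in sham mice alone by the call (Mmp17, Adamts13 and Adamts20), 16 called in neither and 0 called in opposite directions. A call in 1 surgery and not in the other is no test of the difference. That test, the interaction, was called for Adamts2, Mmp17, Adam8 and Adam12, each more positive after SCI, and for Timp2, more negative after SCI. With the probe difference score none of the 37 genes was called by limma in the interaction or between SCI+CDTX and Sham+CDTX. At an unadjusted p under 0.05 there were 2 and 3. The share of all genes called in that fit was not worked out. Among the 16 arrays only SCI+CDTX 2 has a score near that of Sham+CDTX without being of that group, so in that fit the score and the group are told apart by 1 array.

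**Figure D5:**
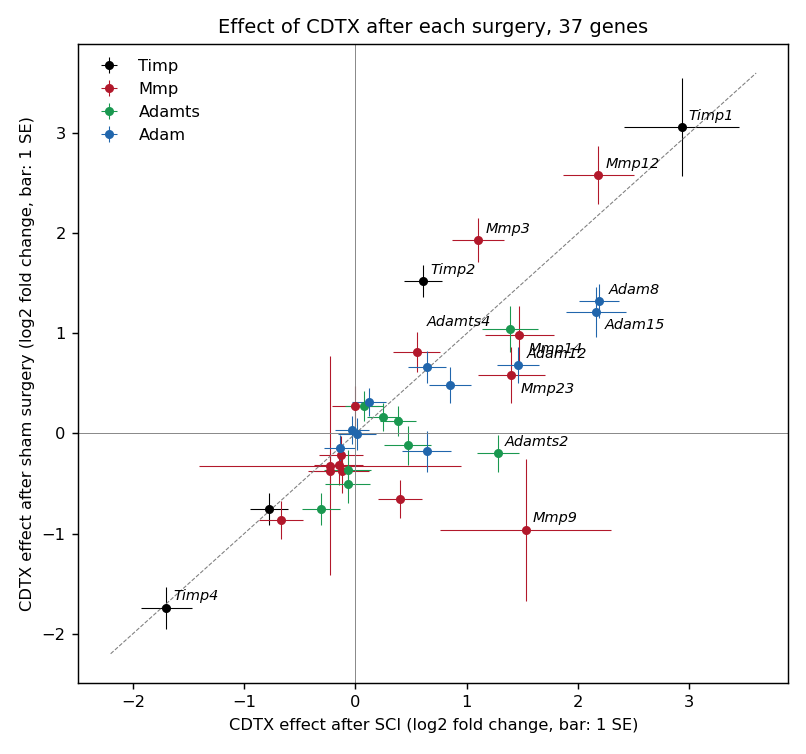
Effect of CDTX after SCI (horizontal axis, log2 fold change) against its effect after sham surgery (vertical axis, log2 fold change) for the 37 measured genes, coloured by family, with bars of 1 SE and a dashed line where both effects are equal. Timp1 at 2.93 and 3.06 and Timp4 at -1.7 and -1.74 lie near the line, while Adamts2 lies at 1.28 and -0.2; the long bars of Mmp9 and Mmp13 come with the 2 replicate 4 arrays.

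Genes that act with these proteases were read from lists chosen with earlier results of these data known. Their counts stand against a background over all genes of 22.1% higher and 22.3% lower for CDTX after SCI, 23.9% and 26.9% for CDTX after sham surgery, and 14.7% and 15.9% for SCI with saline. Of 5 measured genes of the plasminogen system, whose plasmin activates several proMMPs, CDTX raised 2 and lowered 1 after SCI and raised 3 and lowered 1 after sham surgery. Plau, the urokinase activator, rose by 1.53 and 2.55 and its receptor Plaur by 1.52 after SCI. Serpine2, an inhibitor of plasminogen activators, was lower after SCI with both CDTX (-1.7 ± 0.2) and saline (-1.73 ± 0.18). Of 13 measured activators, partners and inhibitors of metalloproteinases, 7 rose with CDTX after SCI and 9 rose and 1 fell after sham surgery. Cd44, which holds Mmp9 at the cell surface, rose by 3.41 after sham surgery. Lcn2, another gene of this list, was higher after SCI with saline by 2.6 ± 0.54.

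Among 13 other matrix-degrading proteases, CDTX raised 4 and lowered 1 after SCI and raised 3 and lowered 1 after sham surgery. With all 15 arrays these shares were below the background of 44.4% and 50.7%. Without the 2 replicate 4 arrays CDTX raised 6 and lowered 1 after SCI, and raised 5 and lowered 2 after sham surgery. In that fit the background was 48% and 52%, and the shares were not below it. Ctss, a lysosomal cysteine protease of macrophages, rose by 2.09 and 4.77. Bmp1, the procollagen C-proteinase, was higher in SCI+CDTX than in Sham+CDTX by 2.18 ± 0.22. With saline it was lower after SCI than after sham surgery by 1.08 (-1.08 ± 0.2). It fell with CDTX after sham surgery by 1.19 (-1.19 ± 0.2). These values were read without the probe difference score. Of 22 partners and shed substrates of ADAM proteases, 11 rose and 2 fell with CDTX after SCI and 11 rose and 4 fell after sham surgery, with Csf1r at 1.92 and 3.01.

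Of 17 basement membrane and interstitial matrix genes that these proteases cut, CDTX raised 13 and lowered 0 after SCI, with a median of 0.85 against -0.04 for all genes, and raised 8 and lowered 4 after sham surgery. SCI with saline lowered 11 of the 17 and raised 0 (median -0.85 against -0.02), Fbn1, the fibrillin of microfibrils, by 1.42 (-1.42 ± 0.22) and Lamb2, a laminin chain, by 1.42 (-1.42 ± 0.18). Fbn1 and Bgn, a small proteoglycan, rose with CDTX after SCI by 2.35 and 2.41. Fibroblast and fibroadipogenic progenitor markers moved with these genes in part. SCI with saline lowered 7 of 10 and CDTX after SCI raised 8 of 10. CDTX after sham surgery raised 4 of them and lowered 2. SCI in CDTX muscle raised 2 and lowered 2, against 16.5% and 15.8% of all genes. The summed intensity was 3060 to 5230 in SCI+Saline, 4680 to 6910 in Sham+Saline, 6610 to 9030 in SCI+CDTX and 9560 to 10100 in Sham+CDTX. Ly6a made up 58.5% of the sum in Sham+CDTX and 42.8% in Sham+Saline. The part of these cells in the matrix gene values was not tested. Of 10 measured ADAMTS substrates, 6 rose with CDTX after SCI and 4 rose and 1 fell after sham surgery; Lox, a collagen cross-linking enzyme whose precursor Adamts proteases can cut, rose by 1.96 and 2.73. The 3 measured ADAMTS-like proteins, which lack the protease part, were all lower with CDTX in sham mice (Adamtsl4 at -1.51 ± 0.18) and not called with CDTX in SCI mice.

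Markers of other cell types also moved between the groups. Of 8 endothelial markers, SCI with saline lowered 7 and CDTX lowered 5 after sham surgery and raised 3 after SCI, with a summed intensity of 2500 to 3200 in SCI+CDTX, 1700 to 2150 in SCI+Saline, 1570 to 1800 in Sham+CDTX and 2960 to 3540 in Sham+Saline. Of 6 smooth muscle and pericyte markers, SCI with saline lowered 4 and CDTX after sham surgery lowered 5. Of 5 measured lymphocyte markers, 4 were higher in SCI+CDTX than in SCI+Saline and 4 than in Sham+CDTX, at a summed intensity of 183 to 275 against 103 to 161 and 120 to 169. The 5 measured muscle precursor markers summed to 792 to 873 in SCI+CDTX, 1300 to 1590 in SCI+Saline, 561 to 716 in Sham+CDTX and 420 to 612 in Sham+Saline, with 2 of them lower with CDTX after SCI. Of 3 measured tenocyte markers, Scx, a tendon transcription factor, was higher after SCI by 2.59 with CDTX and 3.06 with saline and made up 89.5% and 87.5% of the list's sum in the SCI groups. Fmod was called in neither of these comparisons (0.12 and -0.23), and Kera was lower after SCI with saline (-0.71 ± 0.24, adjusted p 0.0313). By limma, CDTX raised 0 of 4 mast cell markers after SCI (1 at an unadjusted p under 0.05) and 2 after sham surgery, and changed 0 of 3 Schwann cell markers in either surgery (1 lower after SCI and 0 after sham surgery at an unadjusted p under 0.05). The part of these cells in the protease and inhibitor values was not tested.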

How the data were processed

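Biotin-labelled RNA of 16 muscle samples was measured on Illumina arrays. Per the file headers and the submitters' processing notes, the authors exported probe intensities, detection p-values and bead counts from GenomeStudio 2011.1, without normalization or background subtraction in the table used here. A second deposited table holds the authors' group means of intensity (average normalization, background subtracted) with p-values against SCI+CDTX, whose adjustment is not settled. The genome build of the probe annotation is not given in the sources used here.

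Intensities of 15 arrays were background-corrected and quantile-normalized with neqc (offset 16) in limma 3.58.1 (R 4.3.3). A probe was kept where 3 or more arrays gave it a detection p below 0.05, which left 14763 probes of 10952 genes. Group means were fitted with lmFit and eBayes, and p-values adjusted by Benjamini-Hochberg over all kept probes; a gene is its brightest kept probe. The script was tested on simulated data. Values of every array are given for the Timp genes and for members called with a log2 fold change of at least 1 in size; other called members are given by log2 fold change, and from each pathway list at most the 3 largest and 3 smallest called changes were drawn on. The members and lists were chosen with earlier results of these data known. The most alike arrays (Sham+CDTX 3 and 4, r 0.994) were not duplicates, with 0 identical columns. Promoter sequences are from RefSeq (GRCm38.p6).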

Additional observations from a re-analysis of the deposited data

Results flagged for a closer look

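Within each group of 4 arrays, the highest or lowest value of 19 named genes was set against the others by Dixon's test at the 95% level, which chance alone passes in about 1 of 20 groups. Of the 3 groups per gene that could be tested, 7 gene and group pairs passed. Replicate 4 of the saline groups gave 5 of them. Mmp9 and Mmp13 were among the 19 genes only because their values had already been seen. Their passes were therefore known beforehand and cannot be set against the rate from chance. In SCI+Saline 4, Mmp13 stood at 8.99 with the next array at 4.85, and Adam12 at 5.15 with the next at 4.29. In Sham+Saline 4, Mmp13 stood at 10.91 (next 4.94), Mmp9 at 9.76 (next 6) and Mmp14 at 9.74 (next 8.41). The others were Mmp15, at 5.1 in SCI+Saline 2 (nearest 5.95), and Mmp17, at 4.48 in Sham+CDTX 1 (nearest 4.41), a group in which Mmp17 was not detected.

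The effect of CDTX differed between SCI and sham mice, by limma's interaction term, for 5 genes. The difference was 1.48 for Adamts2 (adjusted p 0.000452), 1.05 for Mmp17 (adjusted p 0.00865), 0.87 for Adam8 (adjusted p 0.0157), 0.77 for Adam12 (adjusted p 0.0409) and -0.9 for Timp2 (adjusted p 0.00962). Each was more positive after SCI except that of Timp2, and none was called once the probe difference score was added over all 16 arrays.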

How the results depend on the processing

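Of 1774 values of 67 named results under the alternatives, 1669 kept direction and side of the threshold. With the direction kept, 70 lost the call and 12 gained one. The other 23 turned direction, some of them with a change of call as well. Unless stated, the cause was not tested. Besides the main fit, the share of all genes called was worked out only under median scaling and without SCI+Saline 4 and Sham+Saline 4. Member counts under the other settings therefore cannot be set against all genes. The number of member genes called for CDTX in sham mice was 9 with the probe difference score. For SCI+CDTX against Sham+CDTX it was 2 with all 16 arrays and 0 with the score (limma; 3 at an unadjusted p under 0.05). For SCI with saline it was 3 with only the groups compared and 10 with every kept probe counted, where more features are tested. For the interaction it was 1 with all 16 arrays, 9 with array weights, 0 with the score (2 at an unadjusted p under 0.05) and 8 without SCI+Saline 4 and Sham+Saline 4. Leaving out 1 array gave 16 to 20 genes for CDTX after SCI, 16 to 21 after sham surgery, 4 to 8 for SCI+CDTX against Sham+CDTX (4 without SCI+CDTX 3), 3 to 8 for SCI with saline (3 without SCI+Saline 2), 15 to 20 for SCI+CDTX against Sham+Saline, and 3 to 8 for the interaction (3 without SCI+CDTX 3, 8 without SCI+Saline 4). With the score, Adam8 turned to -0.39 against Sham+CDTX and -0.61 in the interaction, Adamts2 to -1.12 and -0.74, Mmp9 to 0.21 for CDTX in sham mice, and the Timp2 interaction to 0. For CDTX in sham mice Mmp9 ranged from -1.33 to 0.01 leaving out 1 array (0.01 without Sham+Saline 4, alone or with SCI+Saline 4). Mmp13 for CDTX after SCI turned to 0.01 with array weights, 0.84 without SCI+Saline 4 (range -0.63 to 0.84 leaving out 1 array) and 0.85 without both arrays, and after sham surgery to 0.05 under median scaling and 1.27 without Sham+Saline 4, alone or with SCI+Saline 4 (range -0.92 to 1.27). Its interaction was -0.04 with all 16 arrays, -0.05 under median scaling, -0.19 with the replicate block, -1.5 to 1.16 leaving out 1 array, and -0.42 without both.

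No pairing by replicate number was seen. Deviations of arrays with the same number correlated at -0.28 to 0.38 (median -0.02, 21 pairs) and of arrays with different numbers at -0.28 to 0.32 (median 0.01, 63 pairs). With so few arrays per group, these correlations cannot show that no pairing existed. With the replicate block the counts were 17, 18, 6, 7, 17 and 5, in the order of the comparisons above with the interaction last; it lost the Adam12 interaction (0.74, adjusted p 0.0552) and gained that of Mmp9 (2.34, adjusted p 0.0409). Probes near background limit what the arrays show, since 29 of 66 genes did not pass the detection filter.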
